A study of Homo sapiens with 12 samples.

Results

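The contractile actin genes described here are 10 genes chosen by name: the light chain gene MYL9, the actins ACTA2, ACTB and ACTG1, the filament-binding genes TAGLN, CNN1, CNN2, TPM1 and TPM2, and the adhesion gene VCL. They are 10 of the 57473 genes to which transcripts could be matched, and 9 of them are among the 16776 genes tested. TPM2 was the member left out, because it did not reach a value of 1 in at least 3 libraries. The cells were HK-2, an established human proximal tubule epithelial line. They were grown for 72 h in medium with suspended 2,8-dihydroxyadenine (DHA), a poorly soluble purine that can crystallise in the kidney, at 60, 120 or 240 ug/ml, or in medium alone (control). Each of the 4 groups held 3 libraries of poly(A)-selected RNA, and the labels name no carrier for the suspension. The labels do not say whether the 3 libraries of each group were grown as separate cultures, so the p-values describe only how far these libraries spread.

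In this pathway, free actin monomers hold the cofactors MRTFA and MRTFB in the cytoplasm. When monomers are taken up into filaments, the cofactors enter the nucleus and act with serum response factor (SRF), which binds a short DNA motif called the CArG box near genes for actins, calponins, transgelin, tropomyosins and vinculin. RhoA signalling drives the same steps by promoting filament assembly and by phosphorylating myosin light chains. In kidney tubule cells these genes shape stress fibres, junction tension and adhesion, and a rise in ACTA2 is widely used as a sign of a mesenchymal state.

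The values are the authors' deposited normalized signal, summed over a gene's transcripts. The library totals ran from 791808 to 1228979 and were lower at every dose than in control, and read depth is unknown. The group means were spread along a first principal component that held 42.4% of the variance. The third 60 ug/ml library, at 5.56 on that component, stood apart from the other libraries of its group at -12.6 and -20.0. Of 15 markers of proximal tubule and renal epithelium, 6 were under 1 in every library (LRP2, CUBN, PAX2, ANPEP, AQP1 and SLC34A1). PAX8, a renal transcription factor, was at 274 ± 32.0 at 240 ug/ml and 230.5 ± 7.40 in control, and KRT18 was at 155 ± 17.4 and 145 ± 10.8 in the same groups. In bulk RNA, fewer cells of a type and less RNA per cell cannot be told apart.

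The start regions of several members carry the SRF motif, and the sequences below show which windows hold it. They are 300-base windows on GRCh38.p14 from RefSeq, reading 5′ to 3′ on the gene's strand, with 250 bases before the annotated start and 50 after it, and capitals mark CArG-box matches. ACTG1 lies at chr17:81512750-81513049 (minus strand), CNN2 at chr19:1026358-1026657 (plus), the downstream of 2 ACTA2 starts at chr10:88952724-88953023 (minus) and CNN1 at chr19:11538601-11538900 (plus).
ACTG1: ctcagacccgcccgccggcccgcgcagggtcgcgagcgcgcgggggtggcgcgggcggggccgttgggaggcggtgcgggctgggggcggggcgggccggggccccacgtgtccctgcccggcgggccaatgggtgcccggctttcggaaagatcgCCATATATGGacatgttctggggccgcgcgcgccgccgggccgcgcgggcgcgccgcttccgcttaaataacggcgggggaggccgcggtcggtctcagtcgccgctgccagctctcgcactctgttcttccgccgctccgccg
CNN2: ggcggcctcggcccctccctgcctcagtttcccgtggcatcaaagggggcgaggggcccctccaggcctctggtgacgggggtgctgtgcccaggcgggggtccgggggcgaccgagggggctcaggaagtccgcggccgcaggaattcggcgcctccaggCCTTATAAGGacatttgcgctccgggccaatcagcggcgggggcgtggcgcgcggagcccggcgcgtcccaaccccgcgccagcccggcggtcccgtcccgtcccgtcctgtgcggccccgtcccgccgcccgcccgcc
ACTA2, downstream start: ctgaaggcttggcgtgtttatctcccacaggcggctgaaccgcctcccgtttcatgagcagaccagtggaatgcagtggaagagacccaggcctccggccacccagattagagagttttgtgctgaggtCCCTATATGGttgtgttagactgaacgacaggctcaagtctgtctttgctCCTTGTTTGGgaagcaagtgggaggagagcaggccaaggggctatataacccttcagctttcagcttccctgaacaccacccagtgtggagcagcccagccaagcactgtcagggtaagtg
CNN1: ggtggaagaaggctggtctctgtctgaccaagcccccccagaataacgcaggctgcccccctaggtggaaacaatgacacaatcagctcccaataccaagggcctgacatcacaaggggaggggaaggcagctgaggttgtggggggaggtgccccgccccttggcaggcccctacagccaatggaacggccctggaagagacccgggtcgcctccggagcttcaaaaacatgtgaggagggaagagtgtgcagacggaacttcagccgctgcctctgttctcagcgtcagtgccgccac
ACTG1 and CNN2 held an exact match, CCATATATGG and CCTTATAAGG, beginning 94 and 89 bases before the start. The downstream ACTA2 window held a pair of matches with 1 letter off, CCCTATATGG and CCTTGTTTGG, beginning 121 and 71 bases before the start. The CNN1 window held no match, exact or with 1 letter off, and the same was true of the windows of VCL, TPM1, TPM2 and the upstream start of ACTA2. Both strands were searched, and since the motif reads the same on each, they give the same sites. Of all 35116 windows, 454 (1.29%) held an exact match and 18.9% a match with at most 1 letter off. The table held windows for 7 of the 10 members. ACTB, MYL9 and TAGLN are named only.

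On the deposited scale, at 120 and 240 ug/ml, MYL9, ACTA2, TAGLN, CNN1, CNN2 and TPM1 fell, VCL rose, and the cytoplasmic actins ACTB and ACTG1 did not pass the test. A member was called at an adjusted p under 0.05 in limma's moderated test on log2(value + 1), two-sided, with Benjamini-Hochberg adjustment over all 16776 genes. At 60 ug/ml, 3 of the 9 tested members fell (TAGLN, CNN1 and TPM1) and 1 rose (VCL), where 10.1% of all tested genes fell and 8.87% rose. The members' median log2 fold change was -0.36, beside -0.03 over all genes. There, 5 members lay wholly below control, beside 20.3% of all genes, and 2 wholly above, beside 16.1%. As a share of the library total, MYL9 and CNN2 overlapped control at that dose, and ACTG1 lay wholly above it. Without the third 60 ug/ml library, 2 members fell and 1 rose at that dose, where 1315 of all 16683 genes fell and 1197 rose.

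At 120 ug/ml, 6 members fell and VCL rose, where 20.8% of all genes fell and 15.9% rose. The median of the members was -0.70. All 3 libraries lay below control for 6 members, beside 27.3% of all genes, and above it for 1, beside 21.7%. At 240 ug/ml the same 6 members fell and VCL rose, where 23.5% of all genes fell and 19.7% rose, and the members' median was -0.84. All 3 treated libraries lay below all 3 control libraries for 8 members, beside 28.7% of all genes, and above them for 1, beside 24.2%. These 8 include ACTB and ACTG1, which did not pass the test. As a share of the library total, ACTB and ACTG1 lay wholly above control at 120 and 240 ug/ml, and CNN2 overlapped it. The CNN2 calls at 120 and 240 ug/ml were lost when library totals were made equal. The 3 doses share the control libraries, so their counts do not support each other.

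Between 240 and 60 ug/ml, which does not involve control, 3 members were lower (MYL9, ACTA2 and CNN2) and 0 higher, where 13.1% of all genes were lower and 11.7% higher. With equal library totals or quantile normalization MYL9 was the 1 member still called lower in that comparison. On the deposited scale the 240 ug/ml libraries lay wholly below those at 60 ug/ml for 8 members, beside 19.8% of all genes. They lay wholly above for 0, beside 17.7%. As a share of the library total, MYL9 and ACTA2 stayed wholly below, while CNN1, CNN2, TPM1, ACTB, ACTG1 and VCL overlapped. Over the 4 groups together, 7 of 9 members differed by limma's F test, beside 42.7% of all genes. The exceptions were ACTB (adjusted p = 0.350) and ACTG1 (adjusted p = 0.371).

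**Figure D1:**
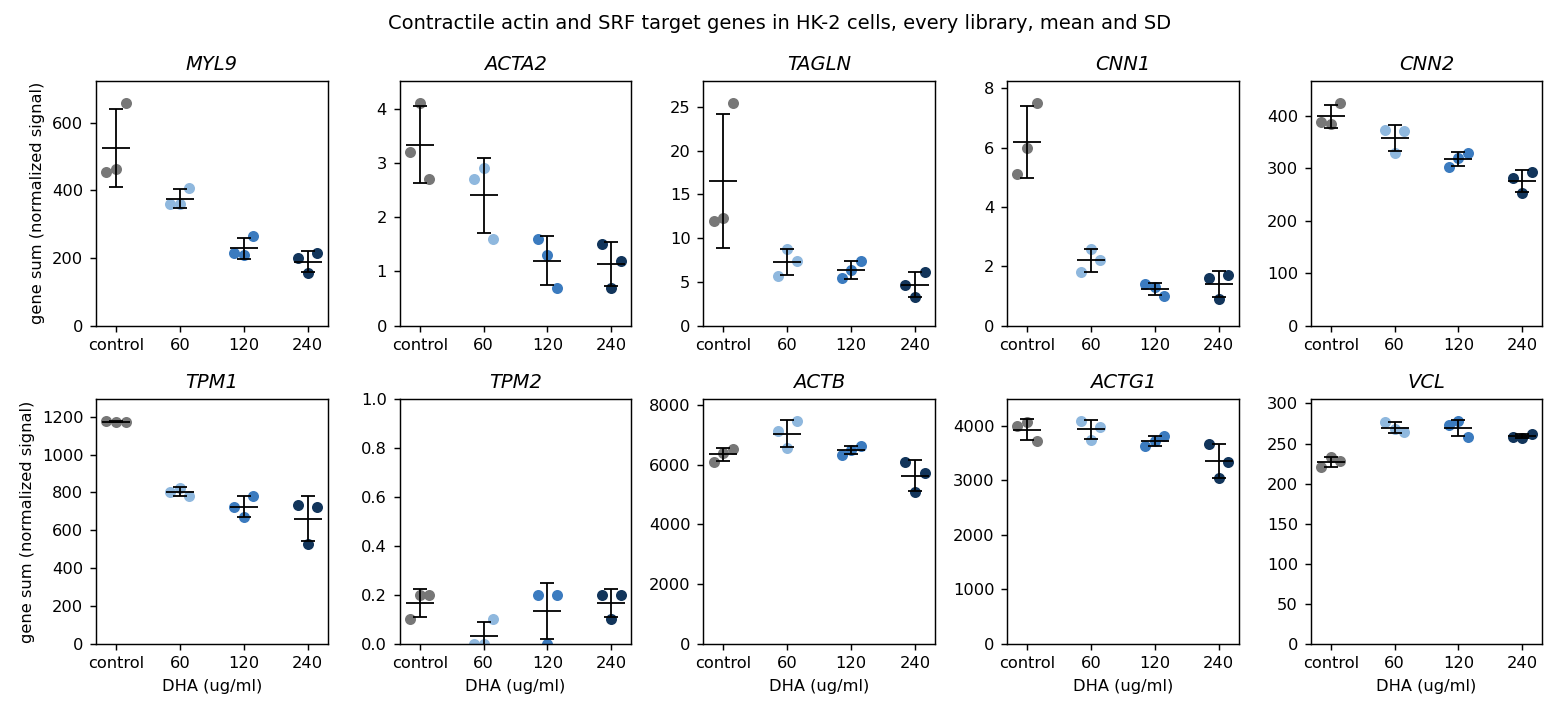
Deposited normalized signal, summed per gene, of the 10 members (y axis, from 0) by DHA dose (x axis, ug/ml), with a point for each of 3 libraries and a bar and whiskers for the mean ± SD. MYL9 spans 155.2 to 213.5 at 240 ug/ml and 453.3 to 656.9 in control, and TPM2 is at 0.2 or less in every library.

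**Figure D2:**
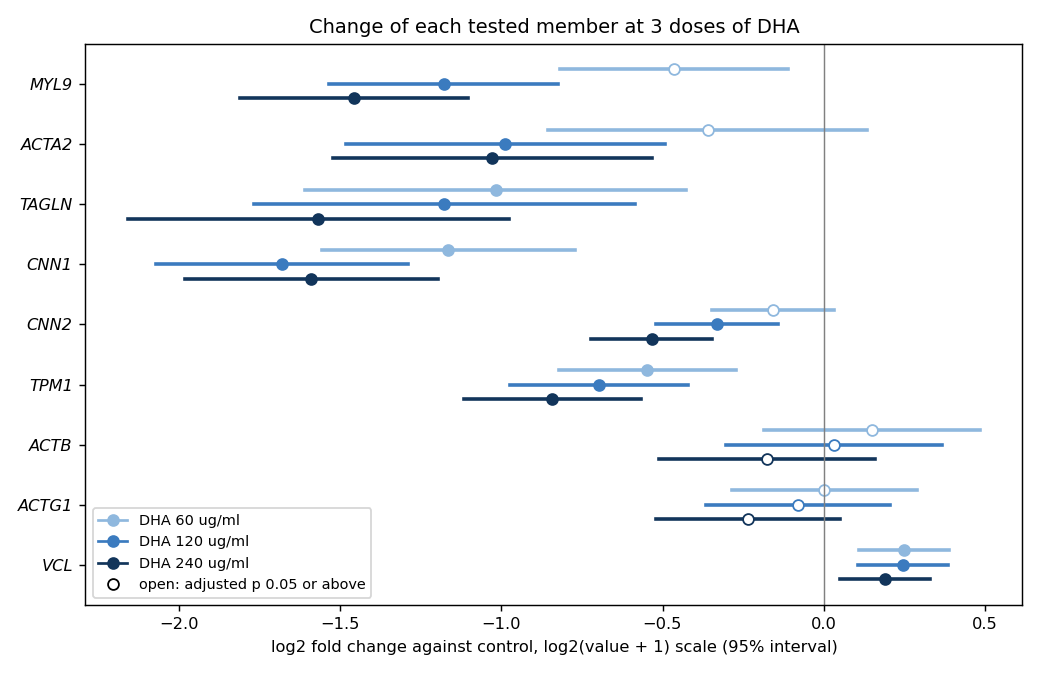
Log2 fold change against control of the 9 tested members (x axis, with the 95% interval of the limma fit) at 60, 120 and 240 ug/ml DHA, with open points where the adjusted p was 0.05 or above. CNN1 lies at -1.59 and VCL at 0.19 at 240 ug/ml. The ACTB interval at that dose runs from -0.51 to 0.16, and its direction flips with another scaling.

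MYL9 (chr20:36541484-36551447, plus strand, by GENCODE release 29 on GRCh38, as for the genes that follow) encodes a regulatory light chain of smooth muscle and non-muscle myosin II, whose phosphorylation switches on contraction. The libraries read 453.3, 462.1 and 656.9 in control, then 358.7, 358 and 406.9 under 60 ug/ml, 214.9, 207.6 and 263.8 under 120 ug/ml and finally 199, 155.2 and 213.5 under 240 ug/ml. Every treated library lay below every control library, and the third control library was the highest of its group. At 60 ug/ml the log2 fold change was -0.46 and did not pass the test (adjusted p = 0.0666), although a filter of at least 5 (adjusted p = 0.0486) and the fit without the second 240 ug/ml library (adjusted p = 0.0439) brought it under the threshold. Without the third control library it was -0.29 (adjusted p = 0.229). The fold was -1.18 (adjusted p = 2.72e-04) at 120 ug/ml and -1.46 (SE 0.16, adjusted p = 5.48e-05) at 240 ug/ml. MYL9 was also lower at 240 than at 60 ug/ml, with a log2 fold change of -0.99 (adjusted p = 0.00298).

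ACTA2 (chr10:88935074-88991339, minus strand) encodes alpha smooth muscle actin, the actin of smooth muscle and of myofibroblasts. It stood near the lower end of the table, and its libraries read 3.2, 4.1 and 2.7 in control, then 2.7, 2.9 and 1.6 under 60 ug/ml, 1.6, 1.3 and 0.7 under 120 ug/ml and finally 1.5, 0.7 and 1.2 under 240 ug/ml. The libraries at 120 and 240 ug/ml all lay below the control libraries, while those at 60 ug/ml overlapped them. As a log2 fold change this was -0.36 (adjusted p = 0.307) at 60 ug/ml, -0.99 (adjusted p = 0.00545) at 120 ug/ml and -1.03 (adjusted p = 0.0035) at 240 ug/ml. Between 240 and 60 ug/ml it was -0.67 with an adjusted p of 0.04999. That call was lost, among other settings, with a pseudocount of 0.1 (adjusted p = 0.055) or 5 (adjusted p = 0.0529), and without the second 60 ug/ml library (adjusted p = 0.168).

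TAGLN (chr11:117199321-117204782, plus strand) encodes transgelin, an actin-binding protein of smooth muscle that is a standard SRF target. The libraries read 11.9, 12.3 and 25.4 in control, then 5.7, 8.7 and 7.4 under 60 ug/ml, 5.4, 6.3 and 7.4 under 120 ug/ml and finally 4.7, 3.3 and 6.1 under 240 ug/ml. All 9 treated libraries lay below all control libraries and the third control library stood well above the other 2. On the log2 scale the change was -1.02 (adjusted p = 0.0223) at 60 ug/ml, -1.18 (adjusted p = 0.00551) at 120 ug/ml and -1.57 (SE 0.27, adjusted p = 7.83e-04) at 240 ug/ml. Without the third control library the fold at 60 ug/ml was -0.68 and was not called (adjusted p = 0.0629), and the call was also lost without the first 60 ug/ml library (adjusted p = 0.0853) or without the third (adjusted p = 0.0503). At 240 ug/ml the value without the third control library was -1.23 and remained called.

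CNN1 (chr19:11538717-11550323, plus strand) encodes calponin 1, which binds actin and holds back the myosin ATPase in smooth muscle. The libraries read 5.1, 6 and 7.5 in control, then 1.8, 2.6 and 2.2 under 60 ug/ml, 1.4, 1.3 and 1 under 120 ug/ml and finally 1.6, 0.9 and 1.7 under 240 ug/ml. The lowest control library was above the highest treated library. In log2 terms the change came to -1.16 (adjusted p = 0.00178) at 60 ug/ml, -1.68 (adjusted p = 6.71e-05) at 120 ug/ml and -1.59 (SE 0.18, adjusted p = 5.92e-05) at 240 ug/ml. Between 240 and 60 ug/ml it was -0.42 and did not pass the test (adjusted p = 0.104).

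CNN2 (chr19:1026581-1039068, plus strand) encodes calponin 2, the calponin of epithelial and other non-muscle cells. The libraries read 388.8, 384.8 and 424.1 in control, then 372.3, 330.1 and 371.6 under 60 ug/ml, 302.5, 319.8 and 329.4 under 120 ug/ml and finally 281.7, 252.5 and 292.8 under 240 ug/ml. The treated libraries lay below the control libraries at each dose. The fitted log2 change was -0.16 (adjusted p = 0.235) at 60 ug/ml, -0.33 (adjusted p = 0.011) at 120 ug/ml and -0.53 (adjusted p = 5.23e-04) at 240 ug/ml. Each of these depends on the scale. With equal library totals the log2 fold change was 0.0441 at 60 ug/ml, 0.0374 at 120 ug/ml (adjusted p = 0.783), and -0.10 at 240 ug/ml (adjusted p = 0.409). With quantile normalization it was 0.00108, -0.0215 (adjusted p = 0.864) and -0.20 (adjusted p = 0.0693) at the 3 doses from low to high. Between 240 and 60 ug/ml it was -0.38 (adjusted p = 0.0105). That call was lost with equal totals (-0.14, adjusted p = 0.290), quantile normalization (-0.20, adjusted p = 0.0935), a GC trend subtracted (-0.17, adjusted p = 0.251) and the fit of those 2 groups alone (adjusted p = 0.053).

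Markers of fibroblasts were lower in the treated libraries too, as a summed level. The summed signal of the 8 fibroblast and myofibroblast markers ranged from 247.1 to 342.4 in control, 114.6 to 217.1 under 60 ug/ml, 67.1 to 76.4 under 120 ug/ml and 38.9 to 66.1 under 240 ug/ml. LUM, a matrix proteoglycan gene, averaged 34.2 ± 10.7 at 240 ug/ml and 226 ± 31.0 in control, and COL1A1 averaged 4.7 ± 0.4 and 17.5 ± 1.91 in those groups. PDGFRA, COL3A1, POSTN and FAP were under 1 in all 12 libraries, and POSTN was at 0. LUM held most of the summed signal in control, and DCN averaged 13.9 ± 4.11 at 240 ug/ml and 47.5 ± 16.5 in control. Which cells gave these marker signals was not tested, nor was the part of any fibroblasts in the ACTA2, TAGLN and CNN1 values. Of 7 smooth muscle markers, 6 were under 1 in every library and MYOCD was at 0. The sum over the 7 was 59.6 to 69.3 at 240 ug/ml and 44.3 to 50 in control, nearly all of it SMTN. The 4 endothelial markers were under 1 throughout, as were 3 of 4 leukocyte markers. The remaining leukocyte marker, CD68, averaged 82.9 ± 14.2 at 240 ug/ml and 126 ± 15.2 in control.

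TPM1 (chr15:63042632-63071915, plus strand) encodes tropomyosin 1, which lies along the actin filament and controls which proteins bind it. The libraries read 1175.5, 1169.8 and 1174.7 in control, then 804.6, 825.9 and 779.1 under 60 ug/ml, 724.9, 669.2 and 780 under 120 ug/ml and finally 735.9, 525.8 and 723.2 under 240 ug/ml. The control libraries lay close together, and all treated libraries lay far below them. Its log2 fold change was -0.55 (adjusted p = 0.012) at 60 ug/ml, -0.70 (adjusted p = 0.00138) at 120 ug/ml and -0.84 (SE 0.13, adjusted p = 3.20e-04) at 240 ug/ml. With quantile normalization these were -0.16 (adjusted p = 0.133) at 60 ug/ml and -0.09 (adjusted p = 0.344) at 120 ug/ml, no longer called, and -0.23 at 240 ug/ml, still called. TPM2 (chr9:35681992-35690121, minus strand), the gene of beta-tropomyosin, was at 0 to 0.2 in all 12 libraries and gave no fold change. Only 10 of its 12 annotated transcripts were matched, so its sum may be understated in every group.

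ACTB (chr7:5527147-5563784, minus strand) and ACTG1 (chr17:81509971-81523847, minus strand) encode the cytoplasmic beta and gamma actins of almost every cell. For ACTB the libraries read 6105.7, 6405.2 and 6536.6 in control, then 7128.3, 6560.7 and 7452.4 under 60 ug/ml, 6340.1, 6508.7 and 6626.2 under 120 ug/ml and finally 6096.2, 5089.4 and 5729.8 under 240 ug/ml. The log2 fold change was 0.15 (adjusted p = 0.552) at 60 ug/ml, 0.03 (adjusted p = 0.891) at 120 ug/ml and -0.17 at 240 ug/ml, with a 95% interval of -0.51 to 0.16 (adjusted p = 0.387). For ACTG1 the libraries read 4007.7, 4078.4 and 3714.6 in control, then 4083, 3746.6 and 3984.8 under 60 ug/ml, 3626.7, 3726.7 and 3808.2 under 120 ug/ml and finally 3668, 3045.5 and 3336.6 under 240 ug/ml. Its log2 fold change was 0.00 (adjusted p = 0.998) at 60 ug/ml, -0.08 (adjusted p = 0.669) at 120 ug/ml and -0.23 at 240 ug/ml, with a 95% interval of -0.52 to 0.05 (adjusted p = 0.171). In the 240 ug/ml libraries both genes lay under the control range, ACTB narrowly. As a share of the library total both stood higher: ACTB took 0.637% ± 0.0072 at 240 ug/ml and 0.534% ± 0.037 in control, and ACTG1 took 0.378% ± 0.0062 and 0.330% ± 0.0082. With equal totals the log2 fold changes at 240 ug/ml were 0.26 (adjusted p = 0.0659) for ACTB and 0.20 (adjusted p = 0.0915) for ACTG1, and with quantile normalization 0.56 (adjusted p = 0.0187) and 0.70 (adjusted p = 4.35e-04). Equal totals also placed ACTB higher at 60 ug/ml (0.35, adjusted p = 0.0423) and 120 ug/ml (0.40, adjusted p = 0.0112), and ACTG1 at 120 ug/ml (0.29, adjusted p = 0.0248). Quantile normalization placed ACTG1 higher at 60 ug/ml (0.53, adjusted p = 0.00731) and 120 ug/ml (0.69, adjusted p = 6.32e-04), and ACTB at 120 ug/ml (0.57, adjusted p = 0.0207).

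VCL (chr10:73995193-74121363, plus strand) encodes vinculin, which links actin filaments to integrin adhesions and cadherin junctions. The libraries read 220.8, 232.6 and 227.7 in control, then 277, 268.5 and 264.3 under 60 ug/ml, 272.9, 277.6 and 258.5 under 120 ug/ml and finally 258.7, 256.6 and 262.2 under 240 ug/ml. Every treated library lay above every control library. The 240 ug/ml libraries lay below those at 60 ug/ml, and the 120 ug/ml libraries overlapped both. The change on the log2 scale was 0.25 (adjusted p = 0.0192) at 60 ug/ml, 0.25 (adjusted p = 0.0104) at 120 ug/ml and 0.19 (SE 0.06, adjusted p = 0.0307) at 240 ug/ml. At 240 ug/ml the call was lost without control library 1 (0.17, adjusted p = 0.109), 2 (adjusted p = 0.0557) or 3 (adjusted p = 0.0679), and without 240 ug/ml library 1 (adjusted p = 0.0544) or 3 (adjusted p = 0.0872). It was also lost with a length trend subtracted (0.0652, adjusted p = 0.431) and in the fit of those 2 groups alone (adjusted p = 0.0759). The call at 60 ug/ml was lost without control library 1 (adjusted p = 0.0814) or 3 (adjusted p = 0.0557) or 60 ug/ml library 1 (adjusted p = 0.0732). The positive sign against control was kept in all alternatives run.

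Because the library totals differ with dose, the scale was set against 2 other scalings. Making the totals equal moved the median of all genes to 0.34 at 240 ug/ml, from -0.03 as deposited. On that scale MYL9 was at -1.02, ACTA2 at -0.75, TAGLN at -1.19, CNN1 at -1.28 and TPM1 at -0.41, and all 5 remained called at 240 ug/ml. VCL was at 0.62, above that median, while ACTB (0.26) and ACTG1 (0.20) lay below it. With quantile normalization, which left the median at 0.02, MYL9 was at -1.13, ACTA2 at -0.95, TAGLN at -1.54, CNN1 at -1.53 and VCL at 0.46. The 5 falls of MYL9, ACTA2, TAGLN, CNN1 and TPM1 at 240 ug/ml were thus called on all 3 scales, as was the rise of VCL.

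**Figure D3:**
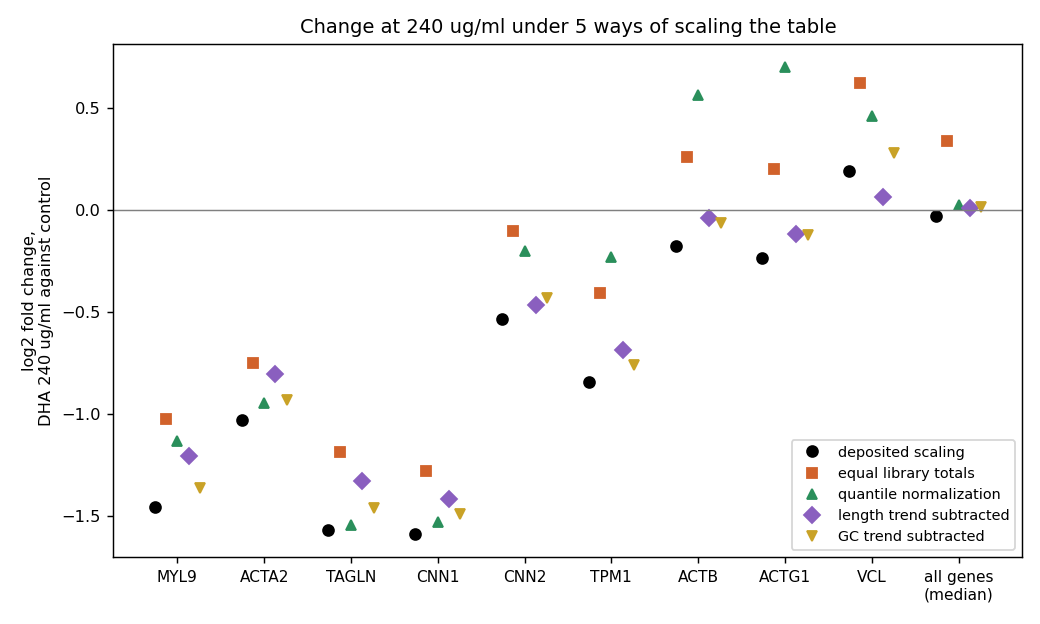
Log2 fold change at 240 ug/ml DHA against control (y axis) of the 9 tested members and the median of all genes, as deposited and under 4 other treatments of the values. MYL9, ACTA2, TAGLN, CNN1 and TPM1 lie below 0 under all 5, whereas ACTB (-0.17 as deposited, 0.26 with equal totals) and ACTG1 (-0.23 and 0.20) cross 0.

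Ratios within a library do not depend on its total, apart from the pseudocount of 1. The log2 ratio of the smooth muscle form to the non-muscle form was lower in all 3 of the 240 ug/ml libraries than in any control library for actin, calponin and transgelin. ACTA2 to ACTB was -11.38 ± 0.15 at 240 ug/ml and -10.53 ± 0.25 in control, a difference of -0.85. CNN1 to CNN2 was -6.86 ± 0.17 at 240 ug/ml and -5.81 ± 0.18 in control, and TAGLN to TAGLN2 was -6.44 ± 0.24 and -5.61 ± 0.56. Each gave p = 0.1 (n = 3 each) in the exact two-sided permutation test, the smallest value that 3 libraries against 3 allow. ACTG1 to ACTB was -0.75 ± 0.03 at 240 ug/ml and -0.69 ± 0.11 in control (exact permutation p = 0.4), and MYL9 to MYL6 was -2.69 ± 0.30 and -2.99 ± 0.23 (exact permutation p = 0.2). TPM2 to TPM1 differed by 0.84, a value set by TPM1, since TPM2 was near 0 in both groups. Over these 6 ratios no adjusted p can fall under 0.1.

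Ordered by deposited signal in control, the members ran from the highest as ACTB, ACTG1, TPM1, MYL9, CNN2, VCL, TAGLN, CNN1, ACTA2 and TPM2. The sources used here do not say whether the signal is corrected for transcript length, so this is an order of signals only. No neighbours in that order overlapped in control. MYL9 stood sixth at 240 ug/ml (189 ± 30.4), below CNN2 (276 ± 20.8) and VCL (259 ± 2.83), whose libraries overlapped. At the same dose CNN1 and ACTA2 overlapped.

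Most of each member's signal came from 1 or 2 transcripts. Of the 122 transcripts of the 10 genes that were matched, 70 passed the filter, and at 240 ug/ml 15 fell and 4 rose, where 10.6% of all tested transcripts fell and 9.74% rose. Both transcripts of MYL9 fell: MYL9-202, which carried 70.8% of the gene's signal, to 136 ± 20.7 at 240 ug/ml, against 364 ± 75.4 in control, and MYL9-201 to 52.8 ± 9.71, against 160.1 ± 40.0. CNN1-201, the form of 297 residues, was at 0.4 ± 0.3 at 240 ug/ml and 5.1 ± 1.25 in control (log2 fold change -2.13, adjusted p = 2.25e-04). The noncoding CNN1-207, at 0.8 ± 0.44 and 0.33 ± 0.31 in those groups, did not pass the test (adjusted p = 0.323).

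TPM1 has many splice forms, which differ in length and in their ends. TPM1-206, a form of 284 residues with 65.0% of the signal, was at 433 ± 99.3 at 240 ug/ml and 763 ± 17.7 in control, a log2 fold change of -0.84 (adjusted p = 0.00432). The forms of 284 residues summed to 519 ± 119.7 at 240 ug/ml and 1002 ± 9.63 in control. All other forms together, a split made after the values were seen, summed to 143 ± 4.33 and 171 ± 12.7. TPM1-220 varied widely between the 240 ug/ml libraries relative to its mean, at 33.6, 0 and 11.3, and stood at 135.5, 142.5 and 95.3 in control. The sources used here do not say how reads were shared among these overlapping forms.

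VCL-201, a form of 1134 residues with the extra exon of metavinculin, was assigned 76.5% of the VCL signal. It was at 197 ± 1.89 at 240 ug/ml and 176 ± 3.61 in control and did not pass the test (adjusted p = 0.144). VCL-202, of 1066 residues, was at 56.2 ± 0.59 and 47.6 ± 2.54 in those groups (log2 fold change 0.24, adjusted p = 0.0427). The share of VCL-202 in the sum of VCL-201 and VCL-202 was 22.2% ± 0.11 at 240 ug/ml and 21.2% ± 1.01 in control. As for TPM1, how reads were shared between these overlapping forms is not stated, so which form prevails in the cells was not tested. ACTB-218 and ACTG1-206 carried 99.0% and 97.9% of their genes and did not pass the test. A retained-intron transcript, ACTG1-215, rose to 9.93 ± 0.70 at 240 ug/ml, against 5.83 ± 0.93 in control (log2 fold change 0.68, adjusted p = 0.00269).

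**Figure D4:**
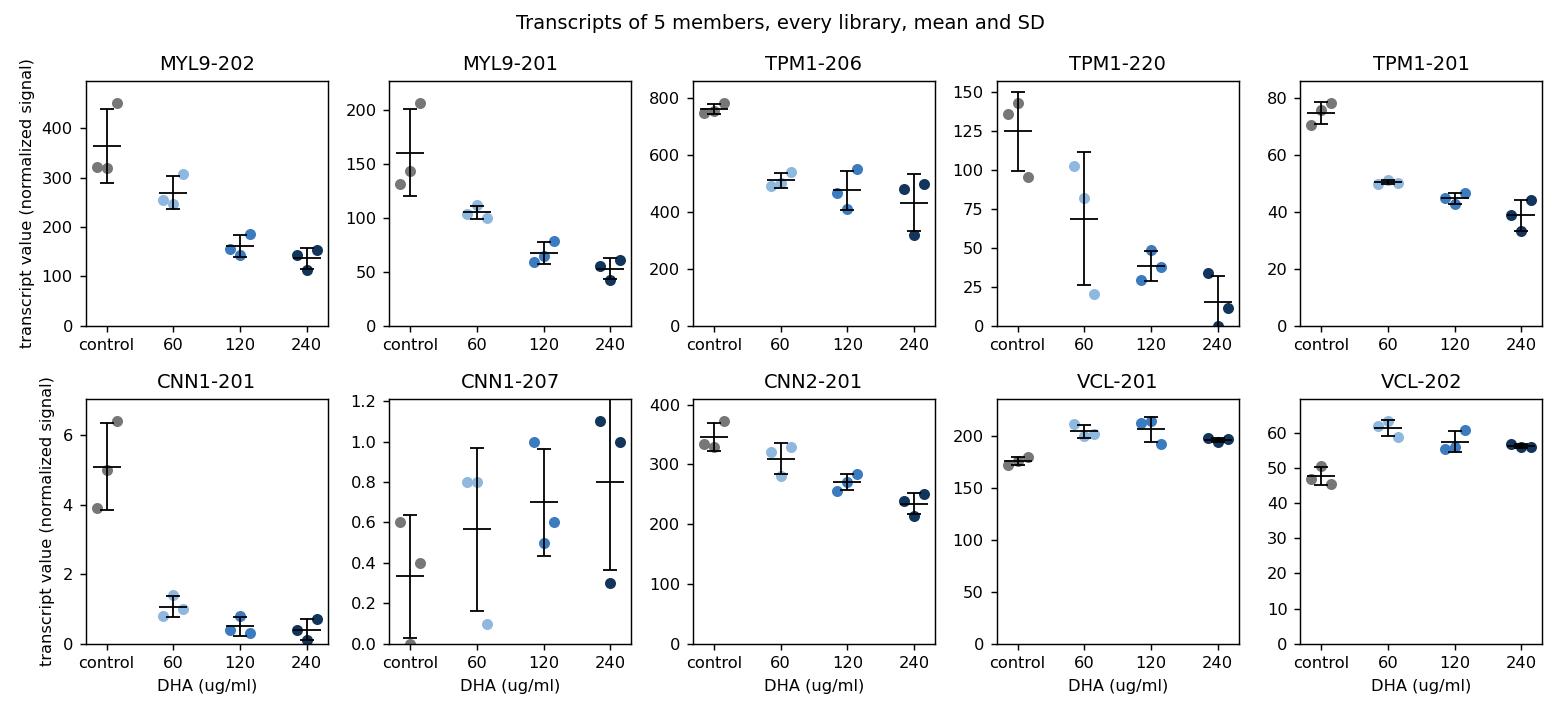
Deposited normalized signal of 10 transcripts of 5 members (y axis, from 0) by DHA dose (x axis, ug/ml), with a point for each of 3 libraries and a bar and whiskers for the mean ± SD. CNN1-201 averages 0.4 at 240 ug/ml and 5.1 in control, while TPM1-220 spreads from 0 to 33.6 within the 240 ug/ml group.

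The other genes of the pathway were taken from 7 lists, 92 genes in all, of which 85 were tested. At 60 ug/ml 8 rose and 17 fell, where 8.87% of all genes rose and 10.1% fell. At 120 ug/ml 15 rose and 28 fell, beside 15.9% and 20.8% of all genes. At 240 ug/ml 14 rose and 34 fell, beside 19.7% and 23.5% of all genes. The median log2 fold change at 240 ug/ml was -0.14, beside -0.03 over all genes. With equal totals 42 rose and 15 fell at 240 ug/ml, where 7250 of all 16694 genes rose and 1494 fell. Those all-gene counts also stand beside the equal-totals counts of each list below. The muscle actins ACTA1, ACTC1 and ACTG2 averaged under 1 in every group and none was tested.

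Of 15 tested genes for SRF, cofactors and MRTF regulators, 6 rose and 2 fell at 240 ug/ml (all genes 19.7% and 23.5%). With equal totals 12 rose and 0 fell, and with quantile normalization 7 rose and 0 fell. SRF itself read 37.6, 34.8 and 35.9 under 60 ug/ml and 28.6, 30.4 and 31.2 in control, and rose there by 0.26 (adjusted p = 0.0186). At 240 ug/ml it read 31, 33.4 and 33.1, a log2 fold change of 0.11 that did not pass the test (adjusted p = 0.202). With equal totals SRF was called higher at 120 ug/ml (0.50, adjusted p = 0.00286) and 240 ug/ml (0.53, adjusted p = 0.00145). On that scale the median of all genes was itself 0.27 at 120 ug/ml and 0.34 at 240 ug/ml. MRTFA (-0.10, adjusted p = 0.379) and MRTFB (0.18, adjusted p = 0.190) did not pass the test at 240 ug/ml, although equal totals brought MRTFB under the threshold (0.57, adjusted p = 0.0049). ARHGEF2, which encodes a RhoA exchange factor, rose by 1.17 on the log2 scale (adjusted p = 3.69e-05), and ELK3, an SRF partner of the ternary complex family, rose by 0.91 (adjusted p = 2.34e-05). RHOC fell by 0.47 (adjusted p = 0.00851) and RHOB fell by 0.40 (adjusted p = 0.0305). Neither was called with equal totals, where RHOB was at 0.03.

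Of 12 tested genes for myosin II and its control, 6 fell and 2 rose, beside 23.5% and 19.7% of all genes. The essential light chain gene MYL6 had 1600.6, 827.9 and 1357.6 at 240 ug/ml and 3904.1, 4070.6 and 4320.1 in control (log2 fold change -1.75, adjusted p = 1.68e-04). MYL6B (-1.33) and the regulatory light chain genes MYL12A (-1.07, adjusted p = 6.60e-04) and MYL12B (-1.06, adjusted p = 3.30e-04) fell as well. The heavy chain genes MYH9 (0.05, adjusted p = 0.621) and MYH10 (-0.02, adjusted p = 0.823) did not pass the test. PPP1R12A, the myosin phosphatase targeting subunit, rose by 0.46 (adjusted p = 0.00619), and SMTN, the gene of smoothelin, rose by 0.45 (adjusted p = 0.00205). With equal totals 4 of the 12 fell and 6 rose.

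Of 16 genes for filament binding, bundling and stress fibres, 10 fell and 1 rose, beside 23.5% and 19.7% of all genes. The median of the list was -0.40. CNN3, the acidic calponin, fell to 140 ± 24.2 at 240 ug/ml, against 311 ± 27.2 in control (log2 fold change -1.15, adjusted p = 1.02e-04). CSRP1, a LIM protein of actin bundles, fell by 0.87 (adjusted p = 7.58e-05), and TPM4 fell by 0.82 (adjusted p = 2.65e-04). ACTN4, which crosslinks filaments, was the gene that rose (0.41, adjusted p = 0.00203). With equal totals 4 of the 16 fell and 6 rose.

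Of 15 focal adhesion genes, 5 fell and 4 rose at 240 ug/ml, beside 23.5% and 19.7% of all genes. With equal totals 1 of them fell and 8 rose. The genes of talin (TLN1, 0.59, adjusted p = 0.00418) and paxillin (PXN, 0.46, adjusted p = 2.13e-04), both partners of vinculin in adhesions, rose. ILK, an adhesion pseudokinase, fell by 0.74 (adjusted p = 1.01e-04), and TGFB1I1, a paxillin relative, fell by 0.50 (adjusted p = 6.25e-04), a call that equal totals ended (-0.07). ZYX was at -0.19 and did not pass the test (adjusted p = 0.0851).

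Of 16 genes for actin monomer binding and filament turnover, 6 fell and 1 rose, beside 23.5% and 19.7% of all genes. TMSB10, a monomer-binding thymosin, had 5562.1, 2719 and 4060.8 at 240 ug/ml and 9906.4, 11314.7 and 10436 in control (-1.42, adjusted p = 7.10e-04). GSN, the gene of the severing protein gelsolin, fell by 1.55 (adjusted p = 8.44e-06). ACTR2, an Arp2/3 subunit, rose by 0.48 (adjusted p = 0.00286). With equal totals 2 of the 16 fell and 6 rose.

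Of 12 other genes reported as MRTF-SRF targets, a list that also holds SRF, 5 fell and 0 rose (all genes 23.5% and 19.7%). CCN2, a matricellular growth factor gene shared with YAP signalling, had 54.5, 36.2 and 49.5 at 240 ug/ml and 110.1, 138.2 and 131.1 in control (-1.43, adjusted p = 7.17e-05). FILIP1L had 6.5, 4.6 and 4.9 at 240 ug/ml and 26.1, 27.2 and 36.7 in control (-2.29, adjusted p = 1.11e-05). CCN1 fell by 0.77 (adjusted p = 1.50e-04), THBS1 by 1.16 (adjusted p = 5.68e-04) and ANKRD1 by 0.81 (adjusted p = 0.00282). With equal totals 4 fell and 5 rose.

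**Figure D5:**
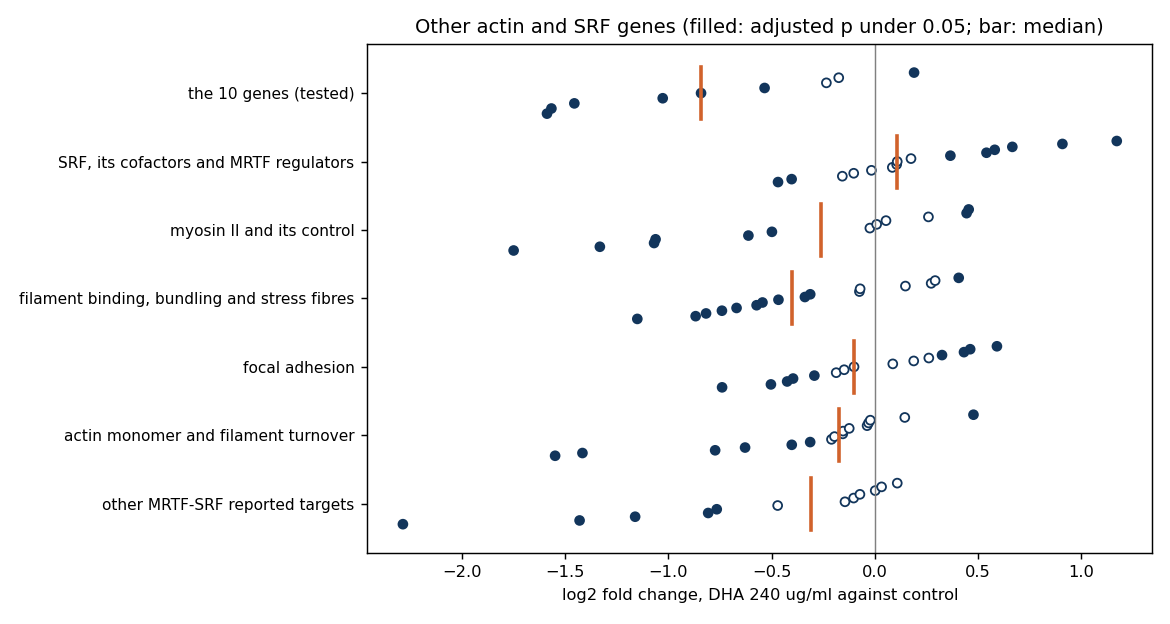
Log2 fold change at 240 ug/ml DHA against control (x axis) of the 9 tested members and of the tested genes of 6 pathway lists (rows), on the deposited scale, filled where the adjusted p was under 0.05, with a bar at each median. The members' median lies at -0.84 and the filament-binding list's at -0.40, which became 0.03 with equal library totals.

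Over the 12 libraries, the genes whose profile was most like that of CNN1 included FAM200B (Pearson r = 0.987) and HOXA5 (0.982), among 8712 genes. Those most like VCL were MATK (0.978), NPLOC4 (0.970) and SAPCD2 (0.969). SAPCD2 had 28.4 ± 1.06 at 240 ug/ml and 16.8 ± 1.83 in control. The libraries share their groups and scale, so these are descriptions of likeness with no p.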

How the data were processed

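RNA from HK-2 cells was measured in 12 libraries, 3 in each of 4 groups, grouped by sample title. Poly(A) RNA was copied with random primers, with dUTP in the second strand, and read on a DNBSEQ instrument, per the labels' protocols. The authors deposited a normalized signal per transcript, to 1 decimal. The submitters' processing notes name GRCh38.p14. The sources used here give no aligner, quantifier or unit. Of 267165 transcripts, 202246 (75.7%) matched GENCODE release 29, holding 93.7% to 94.6% of each total. Their values were summed per gene, so a gene's sum can miss transcripts. Genes at 1 or more in at least 3 libraries were kept. limma 3.58.1 (R 4.3.3) with a mean-variance trend was fitted to log2(value + 1) in 1 model of 4 groups, which understates changes of low genes, and was tested on simulated data. Values are mean ± SD (n = 3). No counting interval is possible. Named pathway genes were SRF, MRTFA, MRTFB and, in each list, the 2 highest and 2 lowest log2 fold changes among genes called at 240 ug/ml, a few others being given from the same lists after their values were seen. The members and lists were chosen with earlier results of these data known. Replicate numbers were not taken to pair libraries, since only 6 of 18 same-numbered correlations were over 0.1. Some values for a gene outside the members are not reported here.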

Additional observations from a re-analysis of the deposited data

How the results depend on the processing

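With equal library totals, the members called higher were 2 at 60 and 3 at 120 ug/ml (of all 16694 genes, 2689 and 6056). The members lower at 240 against 60 ug/ml were 1 (of all genes, 882). The pathway genes at 240 ug/ml were 42 higher and 15 lower (of all genes, 7250 and 1494), and the member transcripts higher were 14. With quantile normalization the same counts in that order were 2, 3, 1, 26 higher (pathway) and 7 (transcripts). The all-gene counts beside the member and pathway counts were 1715, 3249, 2165 and 3806 of 16776. Pathway genes lower at 240 ug/ml on that scale were 0, 6, 7, 4, 2 and 5 by list, in the order described above (of all genes, 3478). On that scale 3 members were higher at 240 ug/ml (of all 16776 genes, 3806). Without a filter 2 member transcripts were higher. In fits of the 2 compared groups alone, 0 members were higher at 240 ug/ml (of all 15725 genes, 3161). In such a fit 1 was lower at 240 against 60 ug/ml (of all 15567 genes, 1293). Trends with transcript length or GC content were subtracted too, a choice made after seeing the data. The length trend gave 0 members higher at 240 ug/ml (of all 16776 genes, 3381). The GC trend gave 1 lower at 240 against 60 ug/ml (of all 16776 genes, 1383).

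Leaving out 1 library at a time gave 0 to 1 members higher at 60 and at 240 ug/ml. It gave 2 to 4 lower at 60 ug/ml, 6 to 6 lower at 240 ug/ml and 2 to 5 member transcripts higher. Over all genes in those fits, 919 to 1557 were higher and 954 to 1883 lower at 60 ug/ml. At 240 ug/ml 2684 to 3416 were higher and 3126 to 4020 lower, of 16590 to 16683 tested. Signs reversed for CNN2 at 60 ug/ml (0.0441 equal totals, 0.00108 quantile) and 120 ug/ml (0.0374 equal totals). For ACTB they did so at 240 ug/ml (0.26 equal totals, 0.56 quantile) and against 60 ug/ml (0.0958 quantile). For ACTG1 they did so at 60 ug/ml (-0.0369 GC trend, -0.0388 to 0.0374 leaving out 1 library), 120 ug/ml (0.29 equal totals, 0.69 quantile, 0.0187 length trend), 240 ug/ml (0.20 equal totals, 0.70 quantile) and against 60 ug/ml (0.17 quantile). VCL reversed at 240 against 60 ug/ml (0.17 equal totals, 0.0840 quantile). The length trend ended the VCL call at 240 ug/ml (0.0652). Causes were not tested. Of the single-gene values under an alternative, 759 kept direction and call, 40 lost the call, 7 gained it and 18 reversed direction. Leaving out a library from outside the compared groups cannot alter the fold change, so part of the 759 was fixed in advance.

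With a replicate block, 6 members were lower and 1 higher at 240 ug/ml, and at 60 ug/ml 4 were lower, MYL9 being added (adjusted p = 0.00904). Calls over all genes at 240 ug/ml were 3622 higher and 4272 lower with the block, beside 3302 and 3936 without. At 60 ug/ml 2135 of all genes were lower with the block, beside 1686 without. Each library's correlations with those of the other groups were averaged by replicate number. For 9 of 12 libraries the highest mean was that of their own number, a hint from the data and not from the design.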
